A study of Caenorhabditis elegans with 2 samples.

Results

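The regions described here are summits of HIF-1 signal in the nuclear genome of Caenorhabditis elegans. They lie beside the genes of 3 classes of small noncoding RNA, transfer RNAs (tRNAs), small nucleolar RNAs (snoRNAs) and small nuclear RNAs (snRNAs). A summit, the base at which a peak of chromatin immunoprecipitation sequencing (ChIP-seq) was placed, was a member when it lay from 500 bp upstream to 200 bp downstream of the annotated start of such a gene, on the gene's strand. Of the 6522 nuclear summits in the relaxed peak list made from the pooled reads of both replicates, 451 (6.92%) were members. The relaxed list was deposited as peaks and background together, so a summit in it is not by itself a bound site. Of all its nuclear summits, 9.38% were also in the authors' stricter thresholded set. Each summit was a member by its position alone, and its signal value did not enter. The 3 gene classes themselves were chosen with earlier results of these data known. The study had 1 group, whole L4 larval hermaphrodites of the strain OR3350 in 2 biological replicates, collected 55 h after they had been synchronised as starved L1 larvae. Per the labels, the line is transgenic and stably expresses HIF-1 fused at its C-terminus to GFP and FLAG, and the fusion protein was precipitated with an antibody against GFP. The antibody field of both samples itself reads hif-1. All cell types of the animal were pooled, so a summit cannot be assigned to a tissue. The labels name no oxygen condition, and neither an untagged strain nor another tagged factor was analysed here, so nothing below compares conditions and no part of the signal can be assigned to hypoxia.

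HIF-1 is the worm hypoxia-inducible factor, a transcription factor that pairs with AHA-1 and recognises the core RCGTG, where R is A or G. tRNA genes are transcribed by RNA polymerase III from a promoter inside the gene, made of an A box near the start and a B box near the end, which the factor TFIIIC binds. snoRNAs guide the chemical modification of ribosomal and other RNAs, and in nematodes some are processed from introns of protein-coding host genes while others have promoters of their own. snRNAs include the RNAs of the spliceosome and, in nematodes, the spliced leader RNAs: SL1 (sls-1 genes) and SL2 (sls-2 genes) donate the leader that is spliced onto the start of messenger RNAs, with SL2 used mainly for downstream genes of operons.

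The sequences on which the results turn were read from the RefSeq WBcel235 assembly. The first set shows tRNA genes, 5′ to 3′ on the gene strand, with the A box near the start and the B box near the end in capitals. The B box was searched as GTTCNANNC on the gene strand, and the A box by a consensus of 11 bases within the first 30 bases of the gene. F15G9.t2 (tRNA-Ala, chrX:9743747-9743818), C04A11.t1 (tRNA-Leu, chrX:13665555-13665673) and F46G11.t2 (tRNA-Pro, chrX:5801211-5801282) were among the tRNA genes with the strongest summits, and C03A3.t1 (tRNA-Arg, chrX:11252590-11252662) also had a summit. T14G8.t1 (tRNA-Pro, chrX:12854840-12854911), K01A12.t1 (tRNA-Arg, chrX:8623603-8623675) and K09C6.t1 (tRNA-Ala, chrV:857325-857396) had no summit and no match to the A box.
F15G9.t2: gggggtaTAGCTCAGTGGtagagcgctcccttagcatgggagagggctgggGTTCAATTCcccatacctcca
K09C6.t1: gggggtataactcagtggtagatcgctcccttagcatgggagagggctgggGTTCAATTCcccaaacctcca
F46G11.t2: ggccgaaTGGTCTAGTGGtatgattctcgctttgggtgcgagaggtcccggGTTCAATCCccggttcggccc
T14G8.t1: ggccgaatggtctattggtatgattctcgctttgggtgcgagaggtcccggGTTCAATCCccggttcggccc
C03A3.t1: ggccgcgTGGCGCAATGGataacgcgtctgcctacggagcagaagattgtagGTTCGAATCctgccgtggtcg
K01A12.t1: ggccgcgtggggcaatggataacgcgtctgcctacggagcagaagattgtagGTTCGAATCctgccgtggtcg
C04A11.t1: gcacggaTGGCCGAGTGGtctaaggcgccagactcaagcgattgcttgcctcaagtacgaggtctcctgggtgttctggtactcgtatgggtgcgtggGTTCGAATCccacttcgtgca

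The second set shows snoRNA genes whose upstream bases hold the same A box followed by a B box, again in capitals. Each run starts 10 bases before the A box and ends 20 bases into the annotated snoRNA gene. They are C51F7.3 (chrV:12303599-12303727, plus strand), F32E10.10 (chrIV:7574058-7574141, plus strand), M106.6 (chrII:10840245-10840336, plus strand) and Y75B12B.12 (chrV:15191074-15191160, minus strand).
C51F7.3: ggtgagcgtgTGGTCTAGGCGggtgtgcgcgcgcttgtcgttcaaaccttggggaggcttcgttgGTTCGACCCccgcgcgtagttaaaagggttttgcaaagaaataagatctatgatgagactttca
F32E10.10: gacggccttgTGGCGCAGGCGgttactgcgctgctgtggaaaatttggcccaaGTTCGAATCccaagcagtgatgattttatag
M106.6: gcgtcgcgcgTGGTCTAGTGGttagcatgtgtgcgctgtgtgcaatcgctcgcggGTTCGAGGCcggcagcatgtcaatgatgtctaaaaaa
Y75B12B.12: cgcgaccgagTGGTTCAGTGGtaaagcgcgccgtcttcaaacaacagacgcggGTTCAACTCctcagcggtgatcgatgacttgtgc

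The third set shows the starts of the snoRNA gene with the highest signal and of 2 SL2 RNA genes, with the annotated gene in capitals. They are D2021.6 (chrX:8546180-8546284, minus strand), sls-2.1 (chrII:5844785-5844889, plus strand) and sls-2.2 (chrII:5543518-5543622, plus strand). The capitals of both sls-2 genes open with the leader that is donated to messenger RNAs.
D2021.6: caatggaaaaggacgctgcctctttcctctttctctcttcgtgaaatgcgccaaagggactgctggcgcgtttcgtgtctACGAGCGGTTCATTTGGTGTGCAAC
sls-2.1: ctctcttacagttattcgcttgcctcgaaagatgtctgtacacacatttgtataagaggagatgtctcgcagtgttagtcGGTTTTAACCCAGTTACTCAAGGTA
sls-2.2: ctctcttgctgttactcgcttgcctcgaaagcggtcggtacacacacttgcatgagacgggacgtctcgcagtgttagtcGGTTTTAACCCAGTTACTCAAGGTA

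The question of how often such genes lay beside a summit was answered by class. Of 612 tRNA genes, 319 had a summit in the window (52.1%, 95% Wilson interval 48.2 to 56.1). Of 346 snoRNA genes, 121 had one (35.0%, 30.1 to 40.1), and of 129 snRNA genes, 23 (17.8%, 12.2 to 25.3). Among all 46890 nuclear genes the share in the same window was 7.37%, and among the 19973 protein-coding genes it was 8.91%. All nuclear genes include 15363 piRNA genes, of which 1.78% had a summit, so the share of all genes is lowered by that class. Over the 3 classes together, 463 of 1087 genes had a summit (42.6%). The intervals cover the number of genes only, and genes that lie close together can share a summit. Of the 451 summits, 396 served 1 gene, 53 served 2 and 2 served 3. By class, 296 lay beside a tRNA gene, 130 beside a snoRNA gene and 26 beside an snRNA gene, with 1 counted for both tRNA and snRNA.

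Many of these genes lie inside protein-coding genes, which was taken to mean that the whole gene lay within the span of a protein-coding gene on either strand. The members were divided almost evenly, with 228 beside a gene inside a protein-coding gene and 223 beside a gene outside. For tRNA genes the shares with a summit were close, 154 of 290 inside (53.1%, 47.4 to 58.8) and 165 of 322 outside (51.2%, 45.8 to 56.7). For snoRNA genes they were 68 of 216 inside (31.5%, 25.7 to 38.0) and 53 of 130 outside (40.8%, 32.7 to 49.4), and for snRNA genes 9 of 63 inside (14.3%, 7.70 to 24.97) and 14 of 66 outside (21.2%, 13.1 to 32.5). The intervals of inside and outside overlapped in each class. Of the 216 snoRNA genes inside a protein-coding gene, 183 lay on the host's strand, and 56 of these had a summit (30.6%). Of the 33 on the opposite strand, 12 had one (36.4%). Among tRNA genes inside a host, 86 of 167 on the host's strand (51.5%) and 68 of 123 on the opposite strand (55.3%) had a summit.

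**Figure D1:**
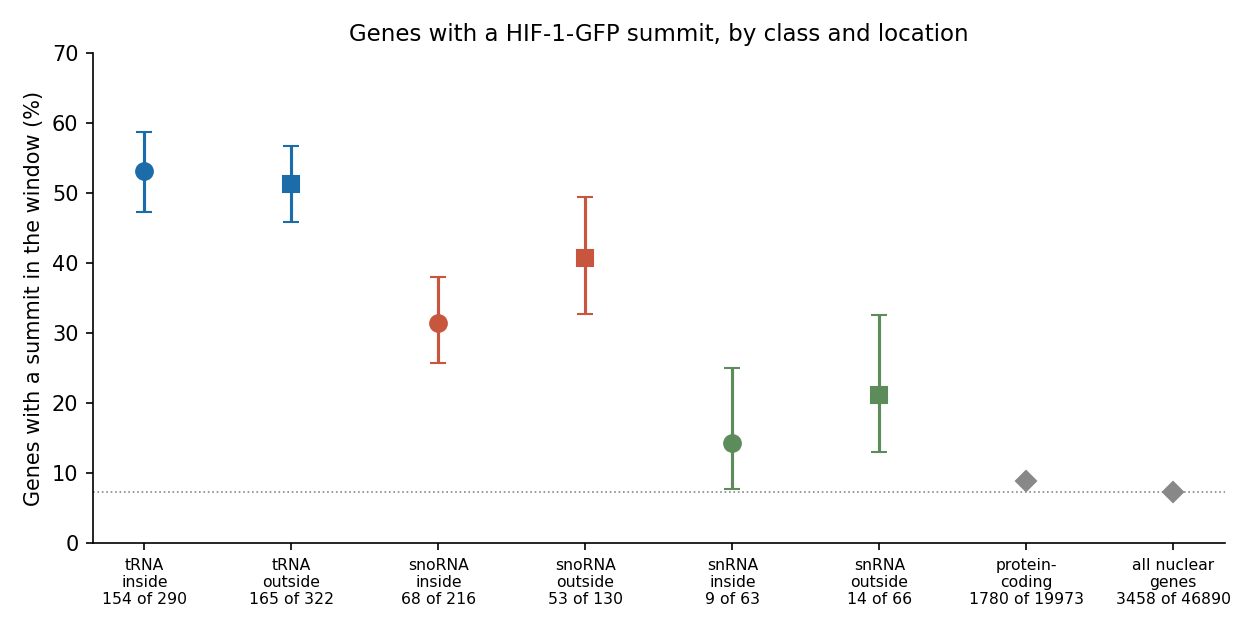
Percentage of genes with a summit in the window, for tRNA, snoRNA and snRNA genes inside (circles) and outside (squares) protein-coding genes, with 95% Wilson intervals, and for protein-coding and all nuclear genes (diamonds). The dotted line marks the share of all nuclear genes, 7.37%. Among the 3 classes only the lower bound for snRNA genes inside a protein-coding gene, 7.70%, comes near it. The interval of that group, 7.70 to 24.97, holds the 8.91% of protein-coding genes.

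The thresholded set, the peaks that the authors kept after irreproducible discovery rate analysis of the replicates, held 612 nuclear summits, and 95 of these were members (15.5%). The set followed the pooled signal: the 631 peaks of highest signal likewise held 95 members and 517 other summits. Its shares therefore restate the signal ranks and are no separate measure of replicate agreement. A summit such as that of sls-2.2 was in the set without a summit within 100 bp in replicate 2. Put the other way, 95 of the 451 members were in the thresholded set (21.1%), against 517 of the 6071 other summits (8.52%) and 9.38% of all nuclear pooled summits. By class the share was 42.3% for summits beside snRNA genes (11 of 26), 29.2% beside snoRNA genes (38 of 130) and 15.5% beside tRNA genes (46 of 296). Counted by gene, 39 snoRNA genes (11.3%), 56 tRNA genes (9.15%) and 9 snRNA genes (6.98%) had a thresholded summit, where 1.26% of all nuclear genes had one. By these counts tRNA genes stood first in the relaxed list and snoRNA genes first in the thresholded set. The thresholded shares of 11.3% and 9.15% are close and given without intervals, and their order was not tested.

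The signal value is the authors' own measure of a peak relative to the control, and it is used here only to describe peaks within 1 list. The members' median in the pooled list was 34.8, against 26.0 for the other nuclear summits. Summits beside snRNA genes had a median of 45.3 (interquartile range 27.6 to 84.6), those beside snoRNA genes 40.8 (30.5 to 58.9) and those beside tRNA genes 32.2 (25.2 to 45.7). The members stood higher at the median and not at the top of the range. Their highest value was 221, at rank 25 of the 6522 nuclear summits, whereas the highest nuclear summit elsewhere had 838. Away from protein-coding promoters the medians were 33.6 for the 338 members and 25.3 for the 4051 other summits.

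**Figure D2:**
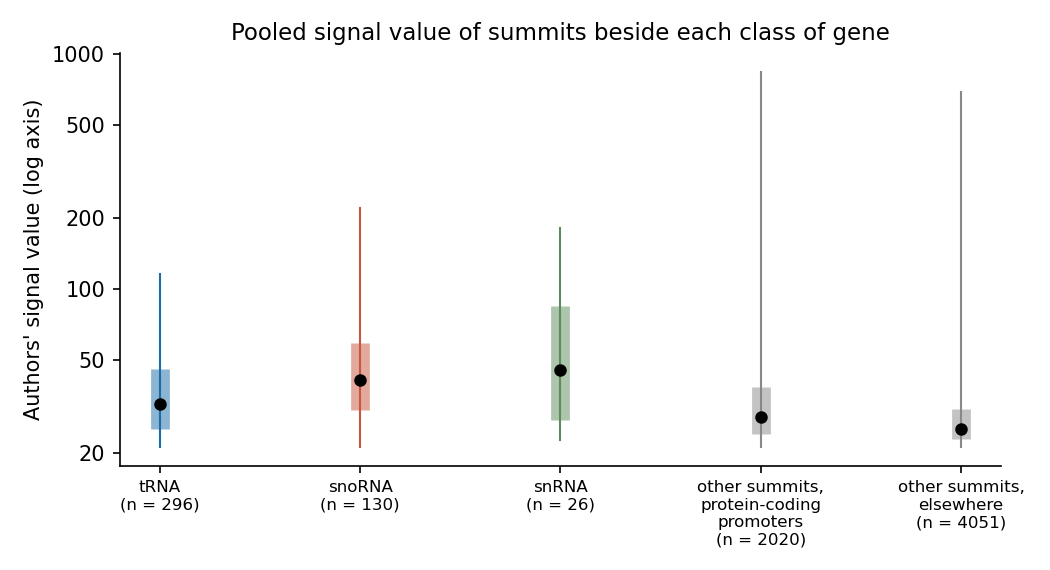
Authors' signal value in the pooled list (log axis) for summits beside tRNA, snoRNA and snRNA genes and for other nuclear summits at and away from protein-coding promoters. Points are medians, thick bars interquartile ranges and thin lines the full range, and the medians of the 3 classes lie above both medians of the other summits, 28.5 and 25.3, while the highest values lie among the other summits.

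Where the summit sat relative to the gene differed between the classes. For each gene the strongest summit in its window was used. At tRNA genes the summits were centred on the start and the gene itself, with a median position of 4 bp downstream of the start and an interquartile range of -49.5 to 65 bp, and the median gene was 72 bp long. Of the 319 tRNA genes, 153 had the summit upstream of the gene, 98 within it and 68 beyond its end. At snoRNA genes the median was -49 bp (-132 to -18), and 96 of 121 summits (79.3%) lay upstream, 15 within the gene and 10 beyond it. At the 23 snRNA genes the median was -7 bp (-58 to 81), with 12 upstream, 9 within and 2 beyond. At snoRNA genes the upstream share was 75% inside hosts (51 of 68) and 84.9% outside them (45 of 53). The window reaches 500 bp upstream and only 200 bp downstream, so its shape alone favours upstream summits. The upstream shares were not tested against that shape. Of the 121 snoRNA genes, 38 had the summit in the 50 bp before the start and 23 in the 50 bp before those. All 451 member peaks were 444 bp wide, as were 6024 of the 6071 others, so the summit is no finer than the authors' fixed peak shape allows.

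**Figure D3:**
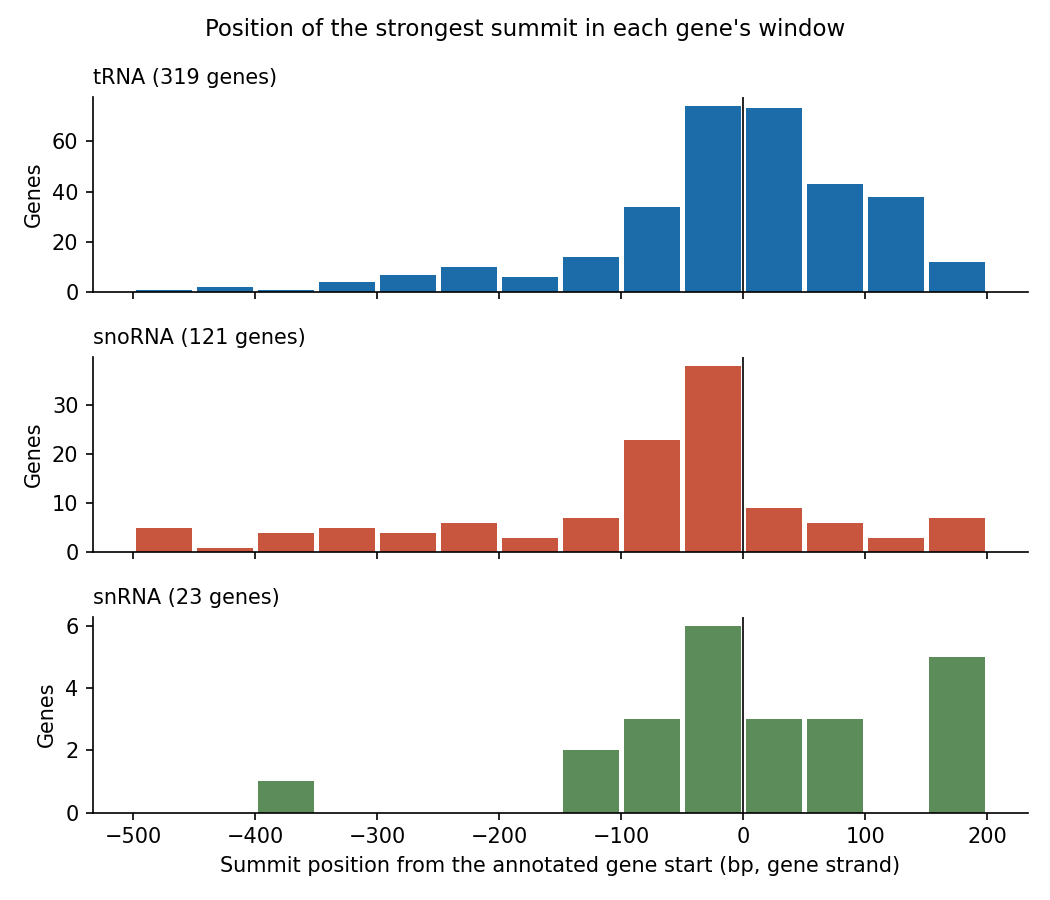
Number of genes by the position of the strongest summit relative to the annotated gene start, in bins of 50 bp, negative values lying upstream on the gene strand. The tRNA summits are spread over the start and the gene, the snoRNA summits gather in the 100 bp upstream of the start, and the 23 snRNA summits are few per bin.

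At the edges of the window, the members farthest upstream lay at -498 bp from C04A2.16 (signal 42.7) and at -490 bp from K02F3.15 (21.6), both snoRNA genes. The nearest summits left out on that side, which lay in no other gene's window, were at -507 bp from the tRNA gene C48C5.t4 (26.7) and at -514 bp from the snoRNA gene W01H2.11 (57.4, in the thresholded set). On the downstream side the last members lay at 193 bp from the snRNA gene R07E5.16 (81.8) and 192 bp from the tRNA gene T28B4.t1 (28.9). The first left out lay at 205 bp from the tRNA gene F13G11.t1 (27.7) and at 207 bp from sls-2.2 (43.2), which also had a stronger summit inside the window.

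tRNA genes, whose products carry amino acids to the ribosome, were described by the amino acid that RefSeq assigns, which was given for 607 of the 612. All 13 cysteine tRNA genes had a summit. Of these, 12 share 1 gene sequence and lie on several chromosomes, inside hosts such as cye-1 and outside, and their signals ran from 23.0 to 59.9, with only C37A2.t1, in cye-1, in the thresholded set. K01A12.t2, K01A12.t4 and K01A12.t5 shared 1 of the cysteine summits (49.9) and F12D9.t1 and F12D9.t6 another (33.0). The share was also high for valine (21 of 31), threonine (23 of 34), alanine (22 of 34), glycine (35 of 55) and proline (26 of 42). It was lowest for histidine (5 of 20) and tryptophan (3 of 12), followed by asparagine (6 of 20) and glutamine (9 of 27). Every amino acid with at least 10 genes was above the 7.37% of all nuclear genes. Share and signal did not go together for isoleucine: 11 of 29 genes had a summit, but their median signal was 55.3, the highest of the amino acids, and 6 of the 11 were in the thresholded set. Valine genes had a median of 26.7 and none in the thresholded set. Amino acids were singled out after their values were seen.

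The 8 tRNA genes with the strongest summits lay on the X chromosome. M02F4.t1 (tRNA-Gly) and M02F4.t2 (tRNA-Glu), a divergent pair outside protein-coding genes, shared a summit between them with a pooled signal of 115.1, at 55.1 in replicate 1 and 55.8 in replicate 2. F15G9.t1 and F15G9.t2, both tRNA-Ala and both in an intron of him-4, which encodes the extracellular matrix protein hemicentin, shared a summit of 107. Its values were 61.0 in replicate 1 and 26.9 in replicate 2, and it lay 104 bp from the start of the first gene and 54 bp upstream of the other. C04A11.t1 (tRNA-Leu) had 106, with 35.2 in replicate 1 and 68.6 in replicate 2. F46G11.t1 and F46G11.t2 (tRNA-Pro) shared a summit of 85.7, with 48.1 and 43.8 in replicates 1 and 2. C33G3.t2 (tRNA-Lys) had 83.2, with 38.7 and 43.6. After these came C53C7.t1 and C53C7.t2 (82.8) and C18A11.t2 (82.4) on X and F02H6.t1 on chromosome IV (80.7). F41D9.t3 (tRNA-Asn), in an intron of sulp-3 and among the 3 strongest tRNA genes inside a host, had 79.998, with 42.9 in replicate 1 and no summit within 100 bp in replicate 2. The replicates were thus close at M02F4, F46G11 and C33G3 and apart at F15G9 and C04A11.

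Nearly every tRNA gene held the internal promoter, and the genes that lacked a recognisable A box seldom had a summit. Of the 569 tRNA genes with both boxes, 306 had a summit (53.8%, 49.7 to 57.8). Of the 23 with the A box alone, 11 had one (47.8%, 29.2 to 67.0), and of the 18 with the B box alone, 2 (11.1%, 3.102 to 32.8). None of the 2 with neither had one. The 18 genes with the B box alone are not all close copies of genes with a summit. Without a summit, F21A3.t1, Y17G9A.t1, T13B5.t2 and Y102E9.t1 differed by 44 to 58 bases from the closest gene that had one. That search covered genes of equal length outside chromosome I. Among the sequences above are close copies, 1 with a summit and the other without. Their differences are counted from 1 at the 5′ end of the gene, with the base of the gene that has a summit first. T14G8.t1 differs from the proline sequence of F46G11.t2 by G15T, within the A box. That sequence stands in 24 tRNA genes, of which 15 had a summit, and the summit nearest to T14G8.t1 lay 11198 bp away. K01A12.t1 differs from C03A3.t1 by C11G. The C03A3.t1 sequence stands in 10 genes, of which 8 had a summit, and the summit nearest to K01A12.t1 lay 372 bp from its start, at the 3 cysteine tRNA genes beside it. K09C6.t1 differs from F15G9.t2 by G10A, G23T and T65A. Of the 15 genes with the F15G9.t2 sequence 9 had a summit. The pairs were picked after the values were seen, each of the 3 genes without a summit is a single gene, and copies with an intact A box also often had none, so the pairs are a description of sequences and not a comparison of the A box. In a further pair the common sequence itself was mostly without a summit: F49C5.t1 differs by G18A from the tryptophan sequence of sup-7, which stands in 10 genes with 2 summits.

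Many tRNA genes are identical, so a read that lies wholly within one cannot be assigned to a single copy. Of the 612 tRNA genes, 469 had at least 1 identical copy, and the class held 200 distinct sequences. Genes with an identical copy had a summit more often (259 of 469, 55.2%, 50.7 to 59.7) than those without (60 of 143, 42.0%, 34.2 to 50.2). Counting a sequence once, as having a summit if any copy did, gave 111 of 200, or 55.5%. The stretch that reaches 50 bases to either side of the summit was found once in the genome for 450 of the 451 members and 5 times for the other, so nearly all summits lay in sequence that differs from that of other copies at that width. The sources used here do not state how reads that map to several places were treated, and the part of that step in the counts was not tested.

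Chromosome X holds 276 of the 612 tRNA genes and 156 of the 451 members (34.6%). Of the tRNA genes on X, 161 had a summit (58.3%, 52.4 to 64.0), against 158 of 336 on the autosomes (47.0%, 41.8 to 52.4). Among the autosomes the share ran between 34.6% on chromosome V and 64.9% on chromosome II, which was above X. snoRNA genes showed the opposite order, with 5 of 33 on X (15.2%, 6.65 to 30.9) and 116 of 313 on the autosomes (37.1%, 31.9 to 42.5). For all nuclear genes the shares were 11.8% on X (10.98 to 12.6) and 6.73% on the autosomes (6.49 to 6.97). Protein-coding genes were level, with 8.90% on X and 8.91% on the autosomes. The shares of all nuclear genes include the tRNA genes themselves and 15363 piRNA genes, of which 1.78% had a summit. The part of this mix of gene classes in their order was not tested.

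**Figure D4:**
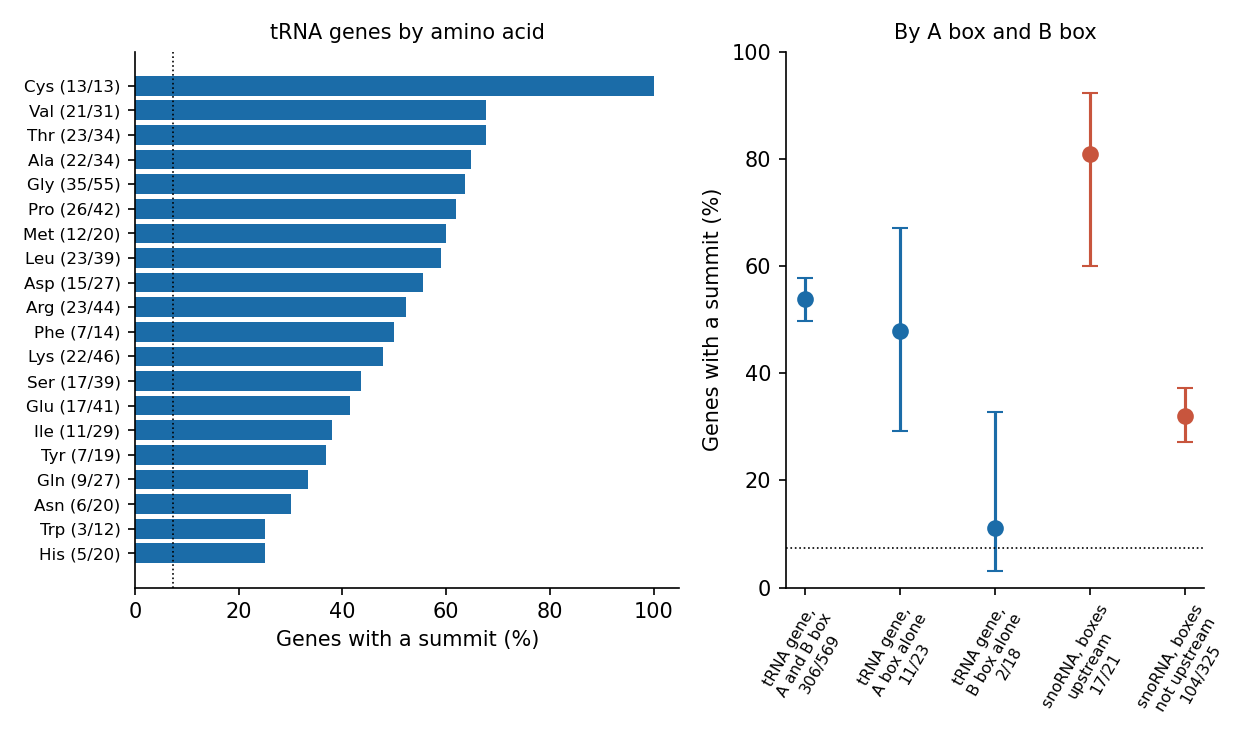
Left, percentage of tRNA genes with a summit for each amino acid with at least 10 genes, with the counts beside the names. Right, the same percentage with 95% Wilson intervals for tRNA genes by the boxes found in the gene (blue) and for snoRNA genes with and without an A and B box upstream (red). The dotted lines mark 7.37%, the share of all nuclear genes, and cysteine at 13 of 13 and snoRNA genes with boxes at 17 of 21 stand highest.

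snoRNA genes gave the strongest member. D2021.6, on X and outside protein-coding genes, had a summit 4 bp into the gene with a pooled signal of 221, at 129.5 in replicate 1 and 87.4 in replicate 2. RCGTG lay within 50 bp of it. The summit also lay in the promoter window of sdha-1, which encodes a subunit of mitochondrial succinate dehydrogenase, so which of the 2 genes it belongs to cannot be told apart. The next summit, with 134, at 66.5 in replicate 1 and 65.4 in replicate 2, lay within C51F7.4 and 20 bp upstream of C51F7.3, adjacent snoRNA genes in frm-7. ZK994.7, in an intron of pxn-1, a peroxidasin gene, had 130, with 60.2 and 76.3 in replicates 1 and 2, at 5 bp upstream. The replicates were close at C51F7.3 and stood in opposite order at D2021.6 and ZK994.7.

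Other snoRNA genes with strong summits included Y53F4B.47 beside the cap methyltransferase gene cmtr-1 (108), C10C6.8 in catp-8 (98.0), T06C12.16 (92.0), Y24D9A.9 in the ribosomal protein gene rpl-7A (91.0), M7.15 (87.8) and F32E10.10 (86.6). At Y24D9A.9 the summit lay upstream of the snoRNA, at -350 bp, within the promoter window of rpl-7A itself. The core RCGTG was found within 50 bp of the summits of Y53F4B.47, C10C6.8 and T06C12.16 and not of the other 3. Short snoRNA genes had a summit more often than long ones: 44 of 95 up to 100 bp in length (46.3%, 36.6 to 56.3), 70 of 211 above 100 and up to 200 bp (33.2%, 27.2 to 39.8) and 7 of 40 longer than 200 bp (17.5%, 8.75 to 32.0).

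Some snoRNA genes had matches to the A box and B box of tRNA genes upstream, and most of these had a summit. The boxes are matches of sequence, and transcription from them was not measured. In the 150 bases before the gene start, on the gene strand, 21 of the 346 snoRNA genes (6.07%) held the A box followed by a B box with 15 to 80 bases between them, against 12 of 19973 protein-coding genes (0.0601%). Of these 21, 17 had a summit (81.0%, 59.999 to 92.3), against 104 of the 325 other snoRNA genes (32.0%, 27.2 to 37.3). Of the 12 protein-coding genes with such boxes, 3 had a summit in the same window (25%, 8.89 to 53.2). None of the 21 pairs of boxes overlapped an annotated tRNA gene, and 12 of the 21 snoRNA genes lay inside a protein-coding gene. The B box began at a median of 14 bp before the gene start and the A box at 60 bp. The 17 summits lay between -116 and -20 bp with a median of -49 bp, and 11 of them lay between the first base of the A box and the last of the B box. Their median signal was 60.7, against 39.6 for the other snoRNA genes with a summit, 9 were in the thresholded set and 13 had a summit in both replicates. This search was added after the values were seen.

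Of the genes shown above, C51F7.3 had 134, and its boxes lie within the neighbouring annotated snoRNA gene C51F7.4. F32E10.10 had 86.6, with 44.0 in replicate 1 and 41.7 in replicate 2. M106.6, in mix-1, a condensin subunit gene, had 78.8, with 47.0 and 30.2, and Y75B12B.12 had 70.3, with 33.5 and 35.9. F55A11.10 (84.7) and W03C9.9 (81.6) followed the same arrangement. The weakest of the 17, T24H7.6, had 22.6 and no summit in either replicate list within 100 bp. The 4 genes with boxes and no summit were H04D03.5, Y39G10AR.24, Y59E1B.14 and Y6B3B.15. The snoRNA genes D2021.6 and ZK994.7, with strong summits, were not among the 21.

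Among snRNA genes the share with a summit was highest in the SL2 family. Of 18 sls-2 genes, 12 had a summit (66.7%, 43.7 to 83.7), against 0 of 12 sls-1 genes (upper bound 24.2%) and 11 of the 99 other snRNA genes (11.1%, 6.32 to 18.8). The 12 genes are not 12 separate summits. sls-2.14 and sls-2.15 shared 1 (26.1), and that of sls-2.9 also lay beside the tRNA gene M01E5.t1. Within 100 bp, sls-2.2, sls-2.5 and sls-2.16 had a summit in replicate 1 alone, and sls-2.6 and sls-2.10 in replicate 2 alone. The sls-1 genes lie in a cluster on chromosome V and fall into sets of 10 and 2 identical copies, whereas no sls-2 gene had an identical copy, so absence of summits at sls-1 and unplaced reads cannot be told apart.

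The strongest SL2 summits lay at 3 of the 4 genes that share the 22-base leader of sls-2.1. sls-2.4 had 181, with 65.8 in replicate 1 and 120.8 in replicate 2, and sls-2.1 had 179, with 92.4 and 91.6. sls-2.2 had 99.6, with 59.8 in replicate 1 and none within 100 bp in replicate 2. sls-2.3 had 49.2, with 26.9 and 27.2. The other 8 sls-2 genes with a summit had 22.7 to 61.7, and the highest of them was sls-2.8. Upstream of the start the 4 genes were also alike: of the 65 bases before the gene, sls-2.2 had 56 in common with sls-2.1, sls-2.3 had 55 and sls-2.4 had 50, without gaps, while the other 14 sls-2 genes had 15 to 34. The summits of sls-2.4 and sls-2.1 also lay in the promoter windows of egg-5 and H41C03.3. That of sls-2.8 lay in those of tim-1 and Y75B8A.23, and that of sls-2.6 in those of hgo-1 and spe-46.

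Outside the SL2 family, F38E11.11 had 124 (57.1 in replicate 1 and 68.2 in replicate 2) and R07E5.16, in an intron of dhc-4, had 115.2 (56.3 and 61.8). R07E5.16 is 1 of 14 identical gene copies, and the only one of them with a summit. sup-6, in F58G1.7, had 85.5, with 57.9 and 37.0. T11F9.15 had 79.2, with 36.1 and 44.1, at 171 bp downstream of the gene start and beyond the gene's end, in the promoter window of snr-4, which encodes an Sm protein of the spliceosome. Of these genes the replicates were farthest apart at sup-6. In all, 13 of the 26 summits beside snRNA genes lay in the promoter window of a protein-coding gene.

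Within 50 bp of the summit, 138 of the 451 members (30.6%) and 1461 of the 6071 other summits (24.1%) held the core RCGTG, searched on both strands. The members were richer in G and C, with a median of 47.5% within 50 bp of the summit, against 40.6% for the other summits, and the part of base composition in the core count was not tested. At tRNA genes the core did not go with having a summit. It lay in the gene at 197 tRNA genes, of which 93 had a summit (47.2%), and was absent from 415, of which 226 had one (54.5%). Within 50 bp of the gene start, 34.2% of tRNA genes with a summit and 38.9% of those without held it. At snoRNA starts the figures were 28.9% with a summit and 14.7% without, and 14.7% of all protein-coding starts held it. The median share of G and C at those starts was 46.5%, 39.6% and 35.6% in the same order. The part of base composition in these figures was not tested either. The core is part of some tRNA genes themselves, as 28 of 29 isoleucine genes hold it and 0 of 34 alanine genes do. The other letters searched, TGCGTC and GAGAGA, lay at 5.10% and 12.2% of the members, against 6.74% and 12.5% of the other summits.

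To ask whether these summits were summits of neighbouring protein-coding genes, they were set against windows from 1000 bp upstream to 200 bp downstream of protein-coding starts. Of the members, 113 lay in such a window (25.1%), against 2020 of the other summits (33.3%). By class these were 50% beside snRNA genes, 35.4% beside snoRNA genes and 18.2% beside tRNA genes. For tRNA genes inside a host the share was 7.59%. The members at protein-coding promoters had a median signal of 38.7, those elsewhere 33.6. Among the shared promoters were those of nol-56, which encodes a core snoRNP protein, with the snoRNA gene K07C5.11 (57.1), of the ribosomal protein gene rps-12 with F54E7.10 (78.4) and of the cytochrome c oxidase subunit gene cox-6A with the snRNA gene F54D8.7 (55.6).

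The genes that encode the machinery of these RNAs were taken from a list of RNA polymerase III, snRNA activator and snoRNP proteins and their partners, of which 24 of 25 names matched. In the promoter window 7 of the 24 had a summit (29.2%, 14.9 to 49.2), against 2424 of 19973 protein-coding genes (12.1%). By role, 5 of the 6 snoRNP proteins had one: nol-56 (57.1, the only one in the thresholded set), nola-3 (33.1), nol-58 (32.6), the fibrillarin gene fib-1 (32.5) and the pseudouridine synthase gene dkc-1 (29.4). Of these, nol-56 and nola-3 had a summit within 100 bp in both replicates, fib-1 in replicate 1 alone, and nol-58 and dkc-1 in replicate 2 alone. The summits of nol-58 and nola-3 lay far from the start, at -900 and -661 bp. The others were rpc-2 (24.9, in replicate 2 alone), a polymerase III subunit, and mafr-1 (24.3, in both replicates), the worm counterpart of the polymerase III repressor MAF1. The snoRNP gene gar-1 had none, nor did the polymerase III subunit genes rpc-1 and rpc-11. The TFIIIC genes tftc-1, tftc-3 and tftc-5, brf-1, tbp-1 and the snRNA activator genes snpc-1.1, snpc-1.2, snpc-1.3, snpc-3.1 and snpc-4 also had none, as did rpoa-12, rtcb-1, hpo-31 and xpo-3. The grouping by role was made after the values were seen.

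The replicates were compared by looking for a summit within 100 bp of each member in either replicate list. Each list held one for 349 members, both held one for 266 (59.0%) and neither for 19. Of the other summits 45.1% had one in both, and of all nuclear pooled summits 46.1%. The share was 65.4% beside snRNA genes, 64.6% beside snoRNA genes, 66.9% beside tRNA genes outside a host and 44.8% beside tRNA genes inside one. Across the 266 members found in both, the log2 signals of the replicates correlated with a Pearson r of 0.61 (Spearman rho 0.54), and those of the other summits found in both with an r of 0.77 (rho 0.53). By class the r was 0.86 beside snRNA genes (n = 17), 0.56 beside snoRNA genes (n = 84), 0.60 beside tRNA genes outside a host (n = 101) and 0.34 beside those inside one (n = 65). These are descriptions across summits that share the same pair of libraries and a control. Read counts are not part of the peak lists, and the depth behind each value is therefore unknown.

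**Figure D5:**
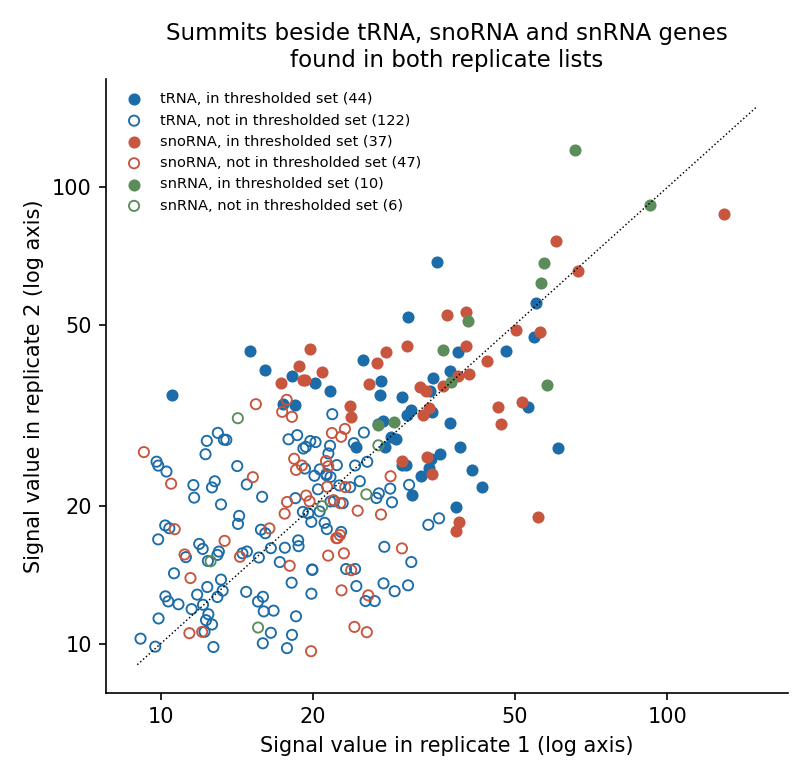
Signal value in replicate 1 and replicate 2 (log axes) of the 266 summits beside tRNA (blue), snoRNA (red) and snRNA (green) genes that had a summit within 100 bp in both lists. Filled points are in the thresholded set, the dotted line marks equal values, and the spread around it is wide among the open points below about 30.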

How the data were processed

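ChIP-seq of HIF-1-GFP was deposited as peak lists on ce11 for each of 2 replicates (13935 and 13823 peaks) and their pooled reads (6541), made with 1 control, and as a thresholded set of 631. The deposited signal value per peak is the authors' own. Each peak's deposited −log10 q-value was not used for ranking, and summits were set by the authors' offset. For the aligner, peak caller, versions, treatment of reads mapping to several places and thresholds: not given in the sources used here. Lists on another build were not used.

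Summits were placed on Ensembl release 115 gene models of WBcel235, and 0 of 6522 nuclear peaks ended beyond a chromosome. Sequence, amino acids and identical copies came from RefSeq, matched by gene ID for 1082 of 1087 genes. Shares have 95% Wilson intervals and no test was run, because there was 1 group. The members, gene lists and letters searched were chosen with earlier results of these data known. Named genes, by rule, are the strongest 8 per class, the strongest 3 per class inside and outside hosts, those at the window's edges and the listed machinery genes. All other names were chosen after their values were seen. Position and overlap steps were tested on simulated data. Python 3.11.15, pandas 2.3.3 and numpy 2.4.6 were used.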

Additional observations from a re-analysis of the deposited data

How the results depend on the processing

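With the thresholded set alone, 95 members remained and the shares of tRNA, snoRNA and snRNA genes with a summit were 9.15%, 11.3% and 6.98%, against 1.26% of all nuclear genes. Using the 6541 highest-signal peaks of 1 replicate's list, as many as the pooled list holds, gave 368 to 422 members, 40.8% to 48.0% of tRNA genes, 29.8% to 32.1% of snoRNA genes, 16.3% to 17.8% of snRNA genes and a ratio of the members' median signal to that of other summits of 1.35 to 1.36, against 1.34 in the pooled list. In the stronger 50% of the pooled list 38.4% of tRNA and 28.9% of snoRNA genes had a summit (all nuclear genes 4.74%). Narrowing the window to between 200 bp before and 100 bp after the start gave 41.7% and 26.3% (all 4.07%), and widening it to 1000 bp before and 500 bp after gave 59.3% and 43.4% (all 11.3%), with the median snRNA position at 48.5 bp. Leaving out summits at protein-coding promoters gave 42.6%, 23.1% and 10.1% (all 2.60%). Members with a summit in both replicates were 39.7% within 50 bp and 74.7% within 200 bp (all 31.2% and 59.1%). RCGTG lay at 16.6% of members within 25 bp and 49.7% within 100 bp (others 13.6% and 39.7%). With promoters of 500 to 100 bp, 14.0% of members lay at one (all 22.3%). In each setting of the gene shares run here, the 3 classes stood above all nuclear genes. No paired analysis was possible because there was 1 group. Depth is unknown, and identical gene copies and the fixed peak width limit what a summit can be assigned to.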

Other observations

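Other noncoding gene classes were counted in the same window, and differences from the 3 classes described were not tested. A summit lay beside 26 of 194 lincRNA genes (13.4%, 95% Wilson interval 9.31 to 18.9, overlapping that of snRNA genes), 30 of 261 miRNA genes (11.5%, level with the 11.1% of snRNA genes outside the sls families), 830 of 7764 other noncoding RNA genes (10.7%) and 10 of 100 antisense RNA genes (10%). It lay beside 46 of 2128 pseudogenes (2.16%) and 273 of 15363 piRNA genes (1.78%). None of the 20 nuclear rRNA genes had one (upper bound 16.1%). Identical copies were not counted for rRNA genes, so absence of summits and unplaced reads cannot be told apart there.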
